A study of Homo sapiens with 9 samples.

Results

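Histone H2A was read by ChIP-seq over long autosomal genes in T47D-MTVL cells, and the library made after 30 min of hormone was compared with the library made before it. Genes entered by position, length and level. They lay on an autosome, had a listed span (end minus start) of at least 10000 bp, and had a mean of at least 0.1 RPKM over the 3 H2A libraries. RPKM is the number of reads per kilobase of gene, scaled to library size (reads per kilobase per M mapped reads). The deposited values also rise with a gene's number of annotated transcripts, so a level is comparable between times and not between genes. These rules kept 13318 of the 20318 protein-coding genes listed (65.5%), and 12993 of them had a symbol. Left out were 5659 shorter autosomal genes, 472 X-linked genes that passed both minimums, and 136 long autosomal genes below the level minimum.

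T47D-MTVL is a line of human luminal breast cancer cells with a reporter gene under the mouse mammary tumour virus promoter. All cells were kept without serum before the experiment. The 0 min cells had no hormone, and the 30 and 60 min cells had R5020, a synthetic progestin that activates the progesterone receptor, at 10 nM. Each time is represented by 1 H2A library, so there is no replicate check, no test between times is possible, and hormone and library cannot be told apart. Steps in the deposited values put the depth at 140.2 M reads before hormone, and at 168.1 M and 132.3 M reads after 30 and 60 min. Occupancy of a histone does not measure expression, so the cell type was not checked against its markers here. All coordinates are on GRCh37.

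H2A is a core histone. With H2B it forms a dimer on the outer part of the nucleosome, the unit that wraps DNA, and remodelling enzymes and chaperones can take these dimers out or put them back while the inner histones stay. In breast cancer cells the progesterone receptor acts with kinases and remodelling complexes within minutes of hormone, and displacement of H2A and H2B is a known step at the virus promoter that the reporter of this line carries. H2A ChIP over a gene body sums all nucleosomes along it, promoter, exons and introns together.

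At 30 min the H2A signal over most of these genes differed little in size from that at 0 min, and the direction was mixed. Across the 13318 genes the median level was 2.58 RPKM at 0 min, 2.48 at 30 min and 2.55 at 60 min. The change of each gene is given as the log2 ratio of its RPKM plus 0.05, at 30 min over 0 min. Its median was -0.10, the middle 50% of genes lay between -0.23 and 0.06, and the 5th and 95th percentiles were -0.34 and 0.25. In all, 8719 genes (65.5%) read lower, 4581 read higher and 18 were equal. A change of 0.3 on this scale is 1.23-fold. At or above 0.3 were 371 genes (2.79%), and at or below -0.3 were 1472 genes (11.1%). Past 0.5 the numbers were 12 higher and 17 lower. Which direction prevailed depended on the scaling. After each change was centred on the median, 1174 genes were at or above 0.3 and 202 at or below -0.3.

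The direction followed base composition. Genes poor in G and C read higher at 30 min and genes rich in them read lower. When the genes were ranked by the GC content of their span and divided into 10 groups of equal size, the medians fell from each group to the next. The GC-poorest group (30.4% to 37.0% GC) rested on 2.05 RPKM at 0 min, 2.46 at 30 min and 2.13 at 60 min, and its median log2 change was 0.24. None of its 1332 genes read lower. The GC-richest group (54.2% to 67.3% GC) had 3.29 RPKM at 0 min, 2.63 at 30 min and 2.95 at 60 min, and its median change was -0.32. All 1332 of its genes read lower. Between these ends the medians were 0.13, 0.05, -0.01, -0.07, -0.13, -0.19, -0.24 and -0.28, and the share of genes reading lower rose from 2.33% in the second group to 56.1% in the fourth and 99.8% in the ninth.

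The relation was steeper at low than at high GC. A smooth trend (lowess of the change on GC content) crossed 0 at 40.4% GC. Across genes, which share the same 2 libraries and are not independent, the Spearman correlation of change and GC content was -0.94 (n = 13318), and the trend carried 89.0% of the variance of the change. Of the 371 genes at or above 0.3, the middle 90% lay between 33.1% and 37.1% GC. Of the 1472 at or below -0.3, the middle 90% lay between 48.1% and 63.1%. GC content was also tied to length, with a median span of 72581.5 bp in the GC-poorest group and 18816.5 bp in the GC-richest. Among the 371 genes at or above 0.3 the median span was 50333 bp, and among the 1472 at or below -0.3 it was 20019 bp. Whether the GC-dependent difference arose in the cells or in the making of the libraries was not tested.

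**Figure D1:**
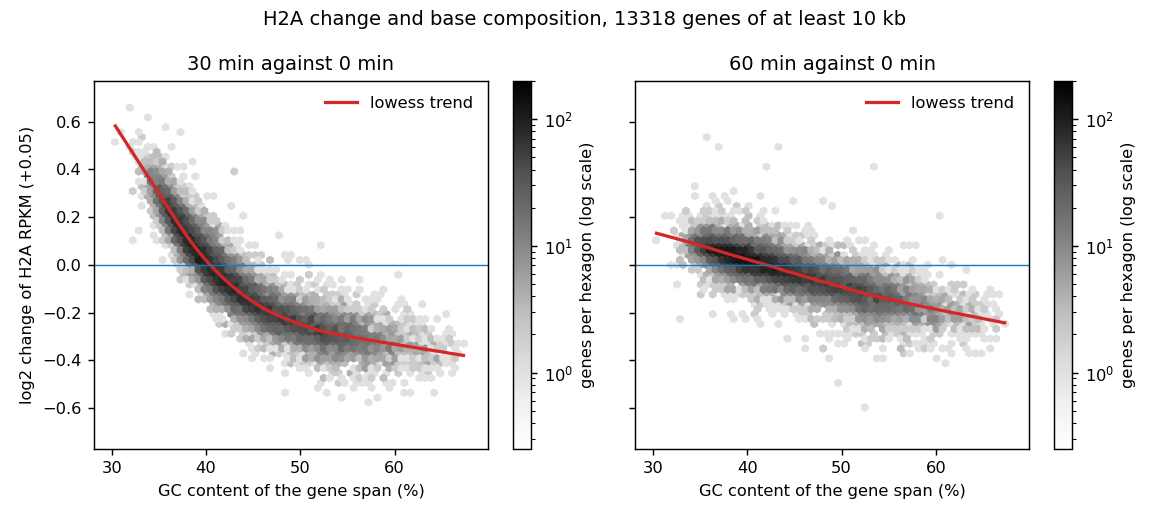
H2A change of each of 13318 genes (log2 of RPKM plus 0.05, vertical axis) against the GC content of its span (percent, horizontal axis), at 30 min on the left and 60 min on the right, both against the same 0 min library. Grey hexagons count genes on a log scale and the red line is the lowess trend, which crosses 0 at 40.4% GC at 30 min and at 42.1% at 60 min and is shallower at 60 min.

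The 10 genes with the largest rise all lay between 31.3% and 37.2% GC and the 10 with the largest fall between 48.5% and 64.1%. Windows chosen to match the GC content of their gene illustrate this contrast and add no evidence for it. For 2 of the rising genes, CSN1S1 and IAPP, and for SPIB of the falling genes, the intronic stretch of 120 bases nearest the middle of the gene and within 1 percentage point of the gene's own GC content is printed from the GRCh37 reference, on the strand of the gene, 5′ to 3′, with G and C in capitals and a and t in lower case. CSN1S1 and IAPP read higher at 30 min and SPIB lower.
CSN1S1 (chr4:70805224-70805343, + strand): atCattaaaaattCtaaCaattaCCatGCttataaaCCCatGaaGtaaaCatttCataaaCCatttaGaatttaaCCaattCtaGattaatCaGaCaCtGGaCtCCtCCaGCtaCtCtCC
IAPP (chr12:21519553-21519672, + strand): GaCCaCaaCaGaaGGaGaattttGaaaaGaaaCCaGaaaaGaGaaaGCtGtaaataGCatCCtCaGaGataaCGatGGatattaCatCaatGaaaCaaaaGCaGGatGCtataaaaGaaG
SPIB (chr19:50927171-50927290, + strand): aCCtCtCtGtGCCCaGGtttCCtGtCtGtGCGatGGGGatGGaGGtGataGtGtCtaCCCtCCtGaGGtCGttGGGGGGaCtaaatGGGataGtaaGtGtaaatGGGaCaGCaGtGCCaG
The CSN1S1 window holds 38 G or C bases, the IAPP window 42 and the SPIB window 65. The dinucleotide CG occurs 0, 1 and 2 times in them, in the same order.

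The largest rise was that of CSN1S1, which encodes the milk protein alpha-s1 casein (chromosome 4, 70798274 to 70812275, 31.9% GC). It read 0.914 RPKM at 0 min, 1.47 at 30 min and 1.05 at 60 min. Its change was 0.66 at 30 min, with a counting standard error of 0.10, an error that covers the sampling of reads and not the spread between cultures. The 60 min level lay between those at 0 and 30 min, nearer to the first.

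CCDC179 (chromosome 11, 22868477 to 22881972) read 0.689, 1.09 and 0.793 RPKM in the order 0, 30 and 60 min, a change of 0.62 at 30 min. IAPP, the gene of the islet peptide amylin (chromosome 12, 21507893 to 21531429), read 1.54, 2.32 and 1.73 RPKM, a change of 0.58. CLEC7A, the gene of the beta-glucan receptor dectin-1 (chromosome 12, 10271148 to 10282856), read 1.19, 1.79 and 1.70 RPKM, a change of 0.57. CLEC7A thus read about as high at 60 as at 30 min, whereas CCDC179 and IAPP had come most of the way back.

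SI, the gene of the gut enzyme sucrase-isomaltase (chromosome 3), read 1.08, 1.62 and 1.27 RPKM. POSTN, the gene of the matrix protein periostin (chromosome 13), read 1.71, 2.53 and 1.802 RPKM. NOVA1, a gene of a neuronal splicing factor (chromosome 14), read 3.27, 4.74 and 3.57 RPKM. All 3 were highest at 30 min, with changes of 0.56, 0.55 and 0.53. C18orf54, the cadherin gene CDH19 (both chromosome 18) and the collagen gene COL11A1 (chromosome 1) followed with 0.53, 0.52 and 0.51. Over the 10 genes the counting standard error ran from 0.02 to 0.15, and all 10 also read higher at 60 min than at 0 min, by 0.07 to 0.50. Both changes share the 0 min library on which the genes were picked, so the 60 min direction is no separate check. Of the 371 genes at or above 0.3 at 30 min, 359 read higher at 60 min than at 0 min.

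The largest fall was that of TSPO, which encodes the translocator protein of the outer mitochondrial membrane (chromosome 22, 43547937 to 43559216, 57.3% GC). It read 2.43 RPKM at 0 min, 1.62 at 30 min and 1.99 at 60 min. Its change at 30 min was -0.57, with a counting standard error of 0.09. SLC26A1, a sulfate transporter gene (chromosome 4, 972861 to 987164), read 2.45, 1.64 and 2.08 RPKM, a change of -0.56. Both were lowest at 30 min.

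SPIB, a B cell transcription factor gene (chromosome 19, 50922215 to 50932246), read 2.45, 1.66 and 1.90 RPKM, a change of -0.55. MYBBP1A, a nucleolar protein gene (chromosome 17), read 5.44, 3.72 and 4.07 RPKM, a change of -0.54. PIGQ, a gene of the anchor pathway for membrane proteins (chromosome 16), read 8.73, 6 and 6.73 RPKM, also -0.54. In each of these the 60 min level was nearer to that at 30 min than to that at 0 min.

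CYP4A22, a fatty acid hydroxylase gene, had -0.54 and LGALS9C, a galectin gene, -0.53, and as both have near-identical copies elsewhere, their reads may be shared. SEMA4C, a semaphorin gene, had -0.53, and LGI4, whose product acts in peripheral myelination, and HSPBP1, a partner of the chaperone HSP70, each had -0.51. These 10 genes were short for the set, from 10.0 to 18.1 kb. Reads were counted on both strands, so a gene that overlaps another listed gene cannot be told apart from it, and 2821 of the 13318 genes (21.2%) do. Among the genes named here these are SLC26A1, SPIB, MYBBP1A, LGI4, IAPP, PGA5, COMMD3-BMI1, FAM217B, CARM1, MACROD1, MACROD2, NUDT5, CHD1L, KRT8 and TYMS, whose reads are uncertain. All 10 also read lower at 60 min than at 0 min, by -0.18 to -0.41.

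**Figure D2:**
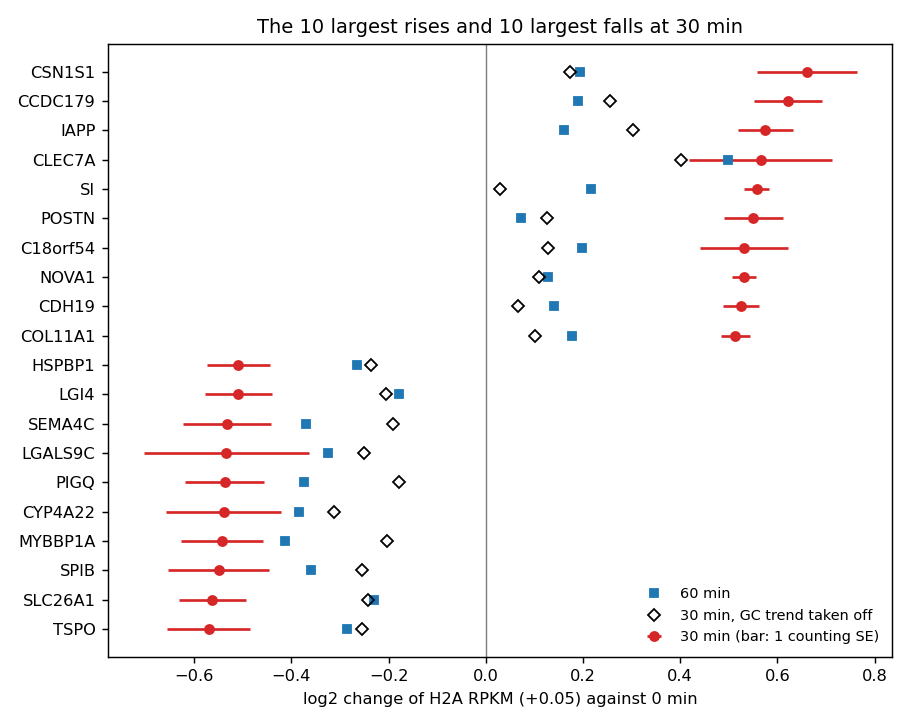
Change against 0 min (log2 of RPKM plus 0.05, horizontal axis) of the 10 genes with the largest rise and the 10 with the largest fall at 30 min. Red circles are 30 min with bars of 1 counting standard error, blue squares 60 min, and open diamonds 30 min with the GC trend taken off, and for every gene the square and the diamond lie nearer to 0 than the circle.

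With the GC trend taken off, little of the change was left. The middle 90% of genes lay between -0.10 and 0.11 around the trend, 6945 genes (52.1%) lay below it, and the standard deviation over genes came to 0.06, against 0.19 before. At or above 0.3 off the trend were 10 genes (0.0751%), and at or below -0.3 were 2 (0.015%). The 10 genes of largest rise kept 0.03 (SI) to 0.40 (CLEC7A), and the 10 of largest fall kept -0.18 (PIGQ) to -0.31 (CYP4A22). CSN1S1 kept 0.17 of its 0.66, NOVA1 0.11 of 0.53 and TSPO -0.26 of -0.57.

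What was left depended on the number of reads. The counting standard error could be had for 13134 genes, and 2080 of these (15.8%) lay off the trend by more than 2 such errors, 974 above it and 1106 below. As deposited, the change of 9461 of the 13134 genes (72.0%) was larger than 2 such errors. Among 320 genes with fewer than 300 reads at 0 min, the standard deviation off the trend was 0.11, the median counting error 0.14, and 1.25% passed 2 errors. At 60 min the same genes had 0.12 and 0.15. Their spread was smaller than the counting error alone, so the errors were overstated for these genes. Among 1187 genes with at least 10000 reads the standard deviation was 0.0351, the median error 0.0156, and 43.9% passed. The genes with most reads thus lay closest to the trend, and the largest share of them lay beyond 2 counting errors.

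**Figure D3:**
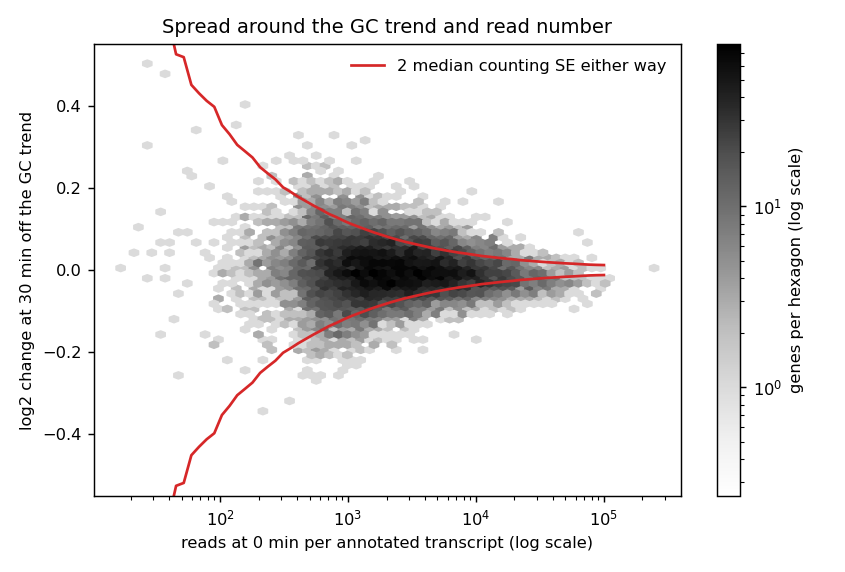
Change at 30 min off the GC trend (log2, vertical axis) against the reads at 0 min per annotated transcript (horizontal axis, log scale), with grey hexagons counting genes on a log scale. Red lines mark 2 median counting standard errors either way, and the spread narrows from a standard deviation of 0.11 below 300 reads to 0.0351 at 10000 reads or more.

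The genes farthest off the trend, among those past 2 counting errors, were mostly short. CLEC7A led those above it with 0.40 (counting error 0.15, 150 reads at 0 min) and had 0.44 off the 60 min trend. Both values use the same 0 min reads, and the gene was picked on the first, so the second is no separate check. FAM217B (chromosome 20) lay 0.33 above it, and its RPKM was 1.56, 1.85 and 1.71 at 0, 30 and 60 min. FLG, the gene of the skin protein filaggrin (chromosome 1, 152274651 to 152297679), lay 0.32 above it with 0.412, 0.479 and 0.407 RPKM. At 60 min the change against 0 min was -0.02 for FLG and 0.13 for FAM217B, which overlaps another listed gene. Whether the 2 genes differ in this was not tested.

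CDKN2C, which encodes the CDK4 and CDK6 inhibitor p18 (chromosome 1, 51426417 to 51440305), lay 0.30 above the trend with 0.704, 0.865 and 0.804 RPKM. PGRMC2, a membrane-associated progesterone receptor component gene (chromosome 4, 129190397 to 129209984), lay 0.28 above it with 1.52, 1.98 and 1.74 RPKM. SMNDC1, a splicing factor gene, also had 0.28, and PLK4, the kinase gene of centriole duplication, had 0.27. IAPP had 0.30, while PGA5, a pepsinogen gene with near-identical copies, had 0.35 and COMMD3-BMI1, a readthrough gene that shares its reads with its neighbours, had 0.33.

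Below the trend, UGT2B28 (-0.34), CYP4A22 (-0.31) and ASAH2 (-0.24) also have near-identical copies, which makes their values uncertain. DEFB110, a defensin gene, read 0.676, 0.755 and 0.685 RPKM. It was higher at 30 min by 0.15 but at -0.27 off the trend for its 33.0% GC. ABHD13 (chromosome 13) read 0.407, 0.412 and 0.386 RPKM, level at 30 min, and lay at -0.26 off the trend. ZNF561, a zinc finger gene (chromosome 19), lay at -0.25 with 7.47, 5.67 and 6.92 RPKM. TSPO and SPIB (each -0.26), SLC26A1 (-0.24) and HSPBP1 (-0.24) completed the set. The other genes past 0.3 were GTF2H2C, SERF1B and SPAG11A, at 0.35, 0.48 and 0.50, with at most 69.3 reads at 0 min, near-identical copies and a change within 2 counting errors. Their read numbers and errors depend on division by the number of annotated transcripts, and errors were overstated for genes with so few reads.

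Measures other than the GC content of the span left small differences. Within the second to sixth GC groups, the 2220 genes richest in CpG for their GC content lay 0.03 above the trend at the median (middle 50% from -0.01 to 0.07), and the 2220 poorest lay at -0.02 (-0.05 to 0.00336). In the 4 GC-richest groups the same terciles lay at 0.00432 and -0.00597. The GC content of the 100 kb on each side gave opposite orders in these blocks, -0.01 for its poorest tercile and 0.00715 for its richest in the second to sixth groups, and 0.00297 and -0.00742 in the 4 GC-richest. Over all GC groups together, length gave 0.00152 for the shortest tercile and -0.00734 for the longest. In the second to sixth groups it gave 0.00380 and -0.0122, and in the 4 GC-richest -0.000687 and -0.00252. As deposited, by contrast, the median change rose with length, from -0.20 in genes of 10 to 20 kb to 0.05 in genes over 300 kb. GC content fell over the same classes, from 48.0% to 39.0%.

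Across the 22 autosomes, only chromosomes 4 (0.07) and 13 (0.03) had a median change above 0, and the other 20 lay below it, down to -0.25 on both chromosomes 19 and 22. This count rested on the length minimum, since with spans of at least 50 kb 10 of the 22 medians lay above 0. Chromosome 4 had the lowest median GC content of its genes, 38.8%, and chromosomes 19 and 22 the highest, 51.2% and 50.7%. On chromosome 22, 302 of 316 genes (95.6%) read lower, and on chromosome 4, 196 of 595 (32.9%), beside 65.5% of all genes. The Spearman correlation of a chromosome's median change with its median GC content was -0.99 over the 22, which share the same libraries. Off the GC trend all 22 medians lay between -0.00968 and 0.00792. Centring on the median of all genes moved 11 of the 22 medians to the other side of 0.

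The same held along a chromosome. The 729 genes within 2 Mb of a chromosome end had a median of -0.26 at 52.5% GC, and the 8545 genes more than 20 Mb from an end had -0.04 at 41.3%. Off the trend the medians were 0.00429 and -0.00299. Neighbouring genes less than 100 kb apart had similar changes as deposited (Pearson correlation 0.60 over 8987 pairs), and their GC contents were similar too (0.67). Off the trend the correlation was 0.07. For 1216 overlapping pairs, which share reads, it was 0.30 off the trend.

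**Figure D4:**
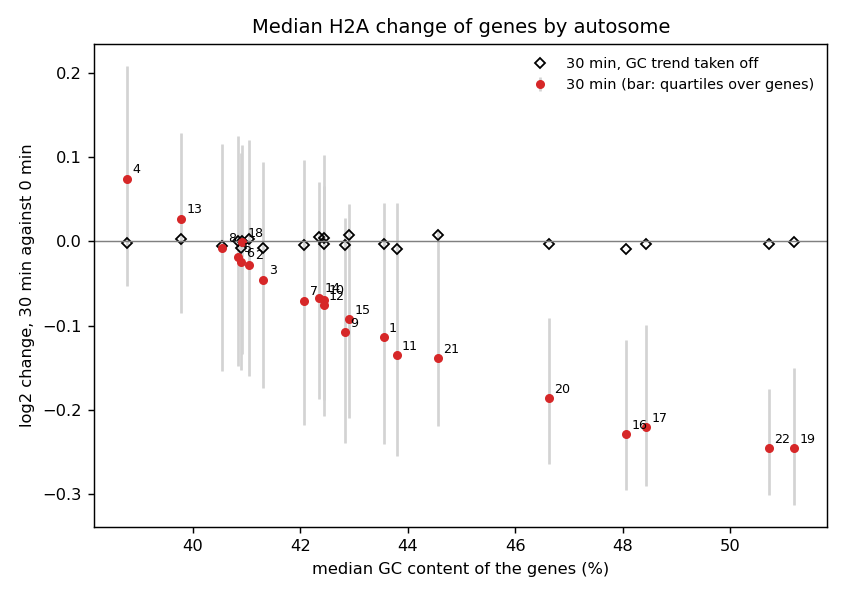
Median H2A change at 30 min (log2, vertical axis) of each of the 22 autosomes against the median GC content of its genes (percent, horizontal axis). Red points are the medians as deposited with grey bars for the quartiles over genes, from 0.07 on chromosome 4 to -0.25 on chromosomes 19 and 22, and open diamonds are the medians with the GC trend taken off, all close to 0.

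The deposited peaks of other chromatin proteins in the same cells were set beside these genes. A gene was counted with a protein when a peak lay over its span or within 5 kb of it. BPTF is the largest subunit of the remodelling complex NURF, and its peaks came as lists displaced or recruited by hormone. The 1451 genes with displaced BPTF peaks only had a median H2A change of 0.04, and the 641 with recruited peaks only had -0.15. The 299 with both had 0.00709, and the 10927 with neither had -0.12, so the recruited class lay close to genes without a BPTF peak. Past 0.3, 78 of the first (5.38%) read higher and 39 lower (2.69%), against 9 (1.404%) and 78 (12.2%) of the second. In genes with neither the shares were 2.46% and 12.4%, and over all genes 2.79% and 11.1%, so the share of lower genes in the recruited class was near the background. The median GC content was 39.4% with displaced peaks only, 44.4% with recruited peaks only and 43.7% with neither. Off the GC trend the medians were -0.00624, -0.00918 and -0.00167 in the same order.

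LSD1 is a histone demethylase, and HP1γ is a heterochromatin protein that binds methylated histone H3. The 4594 genes with an LSD1 peak at 0 min had a median of -0.00744, and the 8724 without one had -0.15. For HP1γ at 0 min the medians were -0.06 in 5098 genes with a peak and -0.12 in 8220 without. Genes with peaks were longer and poorer in GC in both cases. Among genes of at least 50 kb, the median with an HP1γ peak at 0 min minus that without turned to -0.00191, and for LSD1 it was 0.07. For LSD1 the median span was 69.4 kb against 30.7 kb and the median GC content 40.6% against 45.1%. Off the GC trend the median with a peak minus that without one was -0.00300 for LSD1 and -0.00536 for HP1γ.

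The genes were also described by 18 lists, 14 of named genes and 4 taken from gene symbols. Over all 13318 genes the median change was -0.10, or -0.00307 off the GC trend, and each list is read against these values. Over all genes 65.5% read lower, 2.79% were at or above 0.3 and 11.1% at or below -0.3, and the counts of each list are to be read beside these shares. No member of any list lay past 0.3 off the trend, but over all genes only 10 (0.0751%) lay above and 2 (0.015%) below. This absence therefore does not set the lists apart. More than 2 counting errors off the trend, either way, were 17 of 33 synaptic, 30 of 69 cadherin and 0 of 19 glycolysis genes. Over all genes with such an error the share was 15.8%, and it rose with read number. A list whose median lies between -0.10 and 0 turns positive on centring.

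Among receptors and their cofactors, 9 of 18 steroid receptor and coregulator genes read lower. The median was 0.00621 as deposited, 0.10 centred, -0.02 off the GC trend and -0.04 with spans of at least 5 kb. PGR, the progesterone receptor gene (chromosome 11, 100900355 to 101001255, 37.7% GC), read 3.15 RPKM at 0 min, 3.41 at 30 min and 3.32 at 60 min. Its change at 30 min was 0.11 (counting error 0.03) as deposited and -0.02 off the trend. NCOA1, a coactivator gene, was the highest of the list at 0.20, and CARM1, an arginine methyltransferase gene, the lowest at -0.37. Off the trend NCOA1 had 0.00460 and CARM1 -0.08.

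Among genes known to respond to progestin, 21 of 27 read lower, 2 of them at or below -0.3 and none at or above 0.3, beside 65.5%, 11.1% and 2.79% of all genes. The median was -0.13 as deposited, -0.04 centred and -0.00621 off the trend. There 15 were lower and 12 higher, near the share of all genes below the trend (52.1%). PDK4, a kinase that restrains pyruvate dehydrogenase, read 1.25, 1.45 and 1.23 RPKM at 0, 30 and 60 min, a change of 0.20 that came to -0.03 off the trend. STAT5A, a transcription factor gene of the mammary gland, read 8.05, 6.24 and 7.40 RPKM, a change of -0.37 that came to -0.07.

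Of genes of the kinases that progestin can activate and their cyclins, 12 of 20 read lower, with a median of -0.08, 0.01 centred, -0.02 off the trend and 0.07 with spans of at least 50 kb. ERBB4, a receptor kinase gene that spans 1155 kb at 34.7% GC, read 1.89, 2.35 and 1.98 RPKM. Its change of 0.31 had a counting error of 0.00953 and turned to -0.01 off the trend. AKT1, at 64.7% GC, read 11.4, 8.71 and 9.69 RPKM, a change of -0.38 that came to -0.02. These were the highest and lowest members of the list.

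Poly-ADP-ribose is made by PARP enzymes, cut by PARG, and its product can be turned into ATP by NUDT5. NAD for it comes from NAMPT and the NMNAT enzymes. Of 24 genes of this path and of NAD use, 16 read lower, 3 at or below -0.3, both near the shares of all genes (65.5% and 11.1%). The median was -0.10 as deposited, -0.00348 centred and -0.02 off the trend. PARP1 (chromosome 1, 226548392 to 226595774) read 7.40, 6.27 and 6.98 RPKM, a change of -0.24 and -0.04 off the trend. PARG (chromosome 10, 51026325 to 51130715) read 0.694, 0.758 and 0.719 RPKM, a change of 0.12 and -0.03 off the trend. NUDT5 (chromosome 10, 12209576 to 12238143) read 5.53, 4.98 and 5.62 RPKM, a change of -0.15 and -0.00518 off the trend. The 3 lay close to the trend at GC contents of 46.8%, 37.5% and 44.6%.

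Of the other polymerases, PARP2 had -0.10 and PARP4 -0.04, and the tankyrase genes TNKS and TNKS2 had 0.20 and 0.13. NAMPT, of NAD salvage, was highest with 0.28, and it read 3.07, 3.74 and 3.16 RPKM. NMNAT1, NMNAT2 and NMNAT3 had -0.16, -0.20 and -0.10. ADPRH, an ADP-ribose hydrolase gene, was lowest with -0.35, from 3.34 RPKM to 2.62 and 2.69.

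MACROD1, which removes ADP-ribose from proteins, had -0.34 and its relative MACROD2 0.10, at 57.9% and 37.0% GC. SIRT1, SIRT2 and SIRT3, genes of deacylases that use NAD, had 0.12, -0.11 and -0.32. SIRT2 and SIRT1 lay highest of the list off the trend, with 0.17 and 0.12, and ADPRH lowest with -0.16. NADSYN1 and NADK, of NAD and NADP synthesis, had -0.29 and -0.28, and the NAD glycohydrolase genes CD38 and BST1 had -0.08 and -0.14. NUDT9, an ADP-ribose pyrophosphatase gene, had 0.10, NT5C2, a nucleotidase gene, 0.07, and the remodeller CHD1L, which binds poly-ADP-ribose, -0.03.

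Of 31 chromatin remodelling genes 19 read lower, with a median of -0.06 as deposited, 0.03 centred and 0.00361 off the trend. BPTF (chromosome 17, 65821780 to 65980494) read 8.82, 8.89 and 8.93 RPKM, a change of 0.01 with a counting error of 0.02. CHD1, a remodeller of active genes, was highest at 0.38, from 3.49 to 4.56 RPKM and back to 3.72. SMARCA4, the BRG1 ATPase gene, was lowest at -0.38, from 7.09 to 5.46 and then 6.31 RPKM. Off the trend CHD1 had 0.06 and SMARCA4 -0.09.

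Genes of H2A variants, of chaperones and of enzymes that modify H2A were lower at 30 min in 9 of 21 members, with a median of 0.06 as deposited, 0.15 centred and 0.03 off the trend, and none passed 0.3 either way. TLK1, a kinase gene of histone assembly, was highest at 0.22 and kept 0.11 off the trend. NCL, the gene of the H2A and H2B chaperone nucleolin, was lowest at -0.29 and kept -0.07. In the LSD1, CoREST and HP1 list 12 of 17 read lower, with a median of -0.10, -0.00837 centred and 0.01 off the trend. KDM1A, the LSD1 gene, read 2.09, 2.13 and 2.11 RPKM, a change of 0.03 within its counting error of 0.09. RCOR3 had 0.28 and kept 0.11, while the corepressor gene CTBP1 had -0.32 and turned to 0.01.

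Estrogen targets were lower at 30 min in 18 of 22 members, with a median of -0.19, -0.10 centred and -0.00105 off the trend, from TSKU at -0.37 to the corepressor gene NRIP1 at 0.16. Luminal breast markers read lower in 10 of 14, with -0.14, -0.05 centred and 0.02 off the trend, from the keratin gene KRT8 at -0.28 to TRPS1 at 0.23. Basal and mesenchymal markers read lower in 11 of 21, with -0.00706, 0.09 centred and -0.02 off the trend, from COL1A1 at -0.33 to ZEB1 at 0.33. Immune markers read lower in 11 of 12, with -0.16, -0.07 centred and 0.000543 off the trend. PTPRC, at 34.3% GC, was the immune marker that read higher, by 0.35, and CD22 was lowest at -0.39.

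Genes of synaptic adhesion and receptors (median GC content 37.5%) had, as deposited, the highest median of the 18 lists. Of 33 members 22 read higher, 6 of them at or above 0.3 and 3 others at or below -0.3, beside 2.79% and 11.1% of all genes. The median was 0.10 as deposited and 0.20 centred, and it turned to -0.02 off the trend. CSMD3, which spans 1214 kb at 33.7% GC, read 3.93, 5.16 and 4.16 RPKM, a change of 0.39 that came to 0.01. GRIN1, a glutamate receptor gene at 62.1% GC, read 10.3, 7.87 and 8.52 RPKM, a change of -0.38 that came to -0.03.

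Collagen genes had a median of -0.20, with 24 of 41 reading lower. The median was -0.11 centred, -0.01 off the trend and -0.17 with the X chromosome added, and it turned to 0.03 with spans of at least 50 kb. COL11A1, at 33.1% GC, read 1.53, 2.203 and 1.73 RPKM, a change of 0.51, and COL20A1, at 59.8%, read 5.24, 4.06 and 4.48 RPKM, a change of -0.37. Potassium channel genes were lower at 30 min in 55 of 72 members, 17 of them at or below -0.3 (65.5% and 11.1% of all genes), with a median of -0.18, -0.08 centred and -0.02 off the trend. KCNT2 was highest at 0.39 and KCNE3 lowest at -0.45, and off the trend they had 0.01 and -0.23.

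Cadherin and protocadherin genes read lower in 39 of 69 and passed 0.3 upward in 8 (65.5% and 2.79% of all genes). The median was -0.08, which turned to 0.02 both on centring and off the trend, and to 0.00864 with spans of at least 50 kb. The clustered protocadherin genes overlap and share reads, so their values are not separate measurements. CDH19 was highest at 0.52, and CDHR2, of the brush border, was lowest at -0.34. Zinc finger genes were lower at 30 min in 256 of 372 members, with a median of -0.08, 0.02 centred and 0.00736 off the trend, from ZNF500 at -0.50 to ZNF214 at 0.39. Genes of G1/S and replication (15 of 23 lower) had -0.06, 0.03 centred, 0.000134 off the trend and 0.08 with spans of at least 50 kb, from TYMS at -0.35 to ORC4 at 0.25. Genes of glycolysis and ATP synthesis (15 of 19 lower) had -0.14, -0.04 centred and 0.01 off the trend, from ENO1 at -0.34 to LDHB at 0.11.

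**Figure D5:**
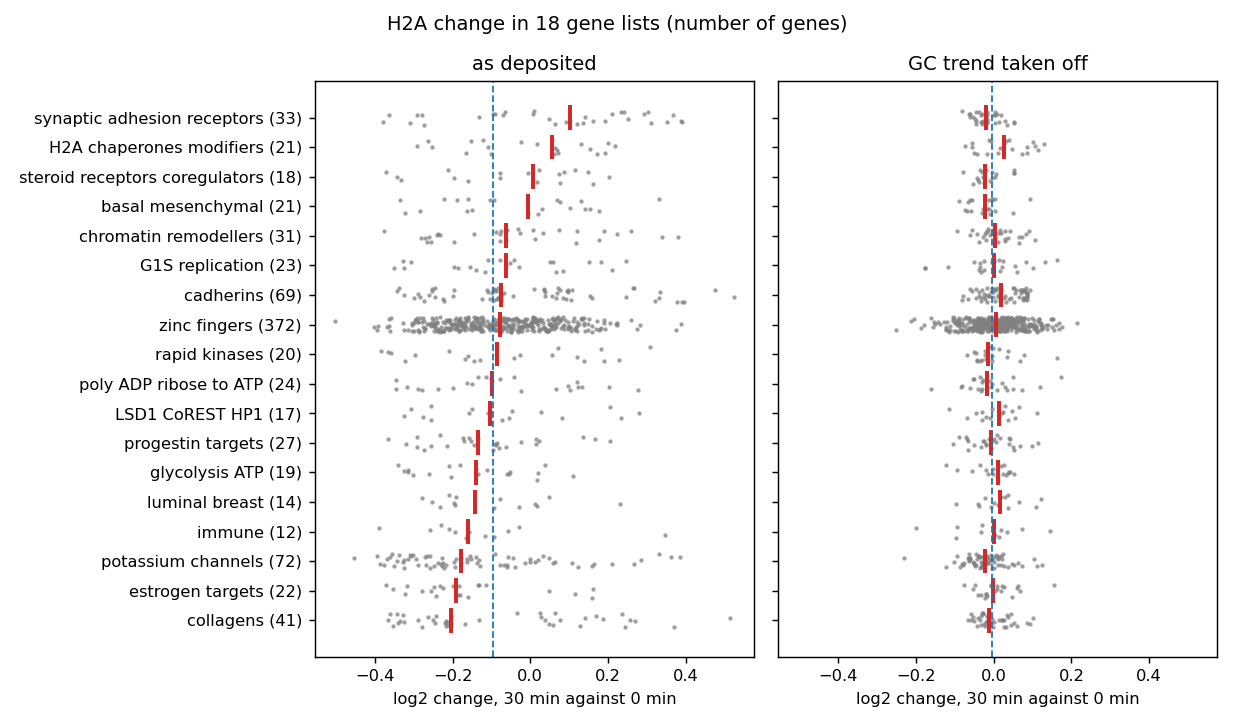
H2A change at 30 min (log2) of the members of 18 gene lists, each point 1 gene, as deposited on the left and with the GC trend taken off on the right. Red bars are list medians, which run from -0.20 to 0.10 on the left and from -0.02 to 0.03 on the right, and the dashed line is the median of all genes.

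The 60 min library was compared with the same 0 min library, so the 2 comparisons share it and are given side by side. At 60 min the median change was -0.02, with the middle 90% between -0.19 and 0.10, and 7589 genes (57%) read lower. At or above 0.3 were 7 genes (0.0526%) and at or below -0.3 were 67 (0.503%). The GC-poorest group had 0.07 at 60 min against 0.24 at 30 min, and the GC-richest had -0.17 against -0.32. The trend carried 63.8% of the variance at 60 min, and the Spearman correlation with GC content across genes was -0.81. Of the 371 genes at or above 0.3 at 30 min, 3 were so at 60 min, and of the 1472 at or below -0.3, 60 were. The median 60 min change was 0.10 in the first set and -0.17 in the second.

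Genes just outside the length and level minimums had medians close to those just inside. The 399 autosomal genes up to 1 kb short of the length minimum had a median change of -0.23, and the 408 up to 1 kb past it also had -0.23. The 38 genes with a mean level less than 0.05 RPKM under the level minimum had -0.05, and the 24 less than 0.05 RPKM over it had -0.04.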

How the data were processed

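H2A was measured by ChIP-seq in 3 libraries. Per the submitters' processing notes, the authors used Bowtie 1.0.0 and HOMER 4.7.2 on hg19 (GRCh37). The deposited H2A values are RPKM, counted by HOMER over GENCODE version 18 genes on both strands, per the file headers. They rise with a gene's number of annotated transcripts, so levels were not compared between genes. The HP1γ and LSD1 peaks carry a score deposited by the authors, whose definition no source used here gives. The deposited BPTF peaks are positions only.

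Each change was log2(RPKM + 0.05), 30 against 0 min, which understates the change of low genes. The GC content of each span came from the GRCh37 reference. A lowess trend of change on GC (fraction 0.2, 3 iterations, statsmodels 0.14.6) was subtracted for values off the trend. The fraction was set after the values had been seen. Off the trend, values at the GC extremes depend on the fit. Steps in low RPKM values of short genes gave the depths. All 25, 28 and 30 values used were whole within 0.1 reads, in a second search after a wider one with a tighter tolerance had left more values unmatched. Counting standard errors used reads divided by the transcript number in GENCODE version 44, a later annotation. That divisor was chosen because it left a smaller spread between genes than summed transcript lengths, and it was not available for 184 genes. These errors cover counting only and were overstated for genes with fewer than 300 reads. With 1 library a side no test was made. Scripts were checked on simulated data.

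Named genes were the 10 largest rises and falls with a symbol, the 10 largest each off the GC trend past 2 counting errors, the highest and lowest of each list, all poly-ADP-ribose genes, and PGR, BPTF and KDM1A. CBX3, the HP1γ gene, was in the rule but its listed span is under 10 kb. The other genes past 0.3 off the trend were named after their values were seen. Genes, lists and comparisons were chosen with earlier results of these data known, and the classes by length, reads, CpG, flank and distance to chromosome ends were drawn up after the data had been explored. Alternatives covered the pseudocount, the level and length minimums, centring, the GC trend, transcript number, the X chromosome, the size called, and the peak margin and score. Windows of sequence were taken from the first 3 genes of each direction, and those of 3 of these 6 genes are not reported here.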

Additional observations from a re-analysis of the deposited data

Results flagged for a closer look

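Some medians, as deposited and not centred, had opposite signs at 30 and 60 min, both against the same 0 min library. The difference between times was not tested, since each has 1 library. They were picked by sign alone, for lists and chromosomes, after a first rule with a minimum size had picked other results. The kinase list had a median of -0.0844 at 30 min and 0.00329 at 60 min, the poly-ADP-ribose list -0.0997 and 0.0126, and the chromatin remodellers -0.0619 and 0.0175. Chromosome 2 had -0.0277 and 0.00659, chromosome 3 had -0.0454 and 0.00395, and chromosome 5 had -0.0189 and 0.00966. Chromosome 6 had -0.0249 and 0.00659, chromosome 8 had -0.00771 and 0.00961, and chromosome 18 had -0.00138 and 0.0137. These signs depended on the scaling. Centred on the median of all genes at 30 min, the kinases came to 0.0119 and the remodellers to 0.0343. The chromosomes named here came to between 0.0509 (chromosome 3) and 0.0949 (chromosome 18). Only the poly-ADP-ribose list stayed below 0, at -0.00348. At 60 min the median of all genes was -0.0156, so centring would raise those values too.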

How the results depend on the processing

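The median change stayed below 0 under every alternative except centring, which sets it to 0. Counts past 0.3 were less stable. As deposited, genes at or above 0.3 and at or below -0.3 numbered 371 and 1472. They came to 134 and 672 with a pseudocount of 0.5, to 189 and 193 with spans of at least 50 kb, to 16 and 55 with 1 annotated transcript, to 1174 and 202 on centring, to 10 and 2 with the GC trend taken off, and to 12 and 17 past 0.5. With spans of at least 5 kb, 2245 were at or below -0.3. Off the trend, the 10 and 2 genes came to 1 and 1 with a pseudocount of 0.5, to 5 and 1 with a mean RPKM of at least 0.5, to 26 and 7 with no such minimum, to 30 and 11 with spans of at least 5 kb, to 0 and 0 at 50 kb, and to 1 and 0 with 1 annotated transcript. Taking the GC trend off left a difference of 0.00201 between the GC-richest and GC-poorest groups, by construction, against -0.56, turned ERBB4 to -0.0105 and CTBP1 to 0.0126, and brought the range of chromosome medians from 0.32 to 0.0176. It also took the number of list medians below 0 from 15 to 9, as did centring, and the number of peak classes above genes without the peak from 6 to 0. With 1 annotated transcript, 2 lists could be read, both below 0. On centring, 6 of 18 list medians and 11 of 22 chromosome medians changed sign, and with the trend off 10 and 7 did. With spans of at least 50 kb, 4 of 17 list medians (kinases, G1/S, collagens and cadherins), 8 of 22 chromosome medians and 2 of 6 peak class differences (HP1γ at 0 min, -0.00191, and recruited BPTF, -0.06) changed sign. At 5 kb 1 list did, and with 1 annotated transcript 2 chromosomes did. The size from which a shift of a median was counted as a move, 0.1, was chosen when the centring shift was known and lies just above it.

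Alternatives added after the values were seen were a wider trend (lowess fraction 0.5), which gave 10 and 2 genes again, and leaving out overlapping genes, which gave 335 and 1128. No paired analysis was possible because each time has 1 library, and no library could be left out. Read number limits the short genes.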
